A study of Drosophila melanogaster with 9 samples.

Results

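Embryos homozygous for a cabut (cbt) allele were compared with w1118 embryos by the transcript levels of whole animals. The comparison takes 6 of the 9 arrays of the series, namely the 3 titled cbtEP(2)2237E1 and the 3 titled as white 1118 control, chosen by those titles alone. The mutant embryos came from the stock cbtEP(2)2237E1/Cy0, twi-eGFP and were collected by an embryo sorter as animals without GFP, about 1000 per RNA sample. The allele's name holds that of an EP element, a P element, with the ending E1. The name alone does not tell whether the element is still in place. The cbt lesion and the rest of that stock's genome go together in this group. The control embryos carried the white 1118 allele, were sorted in the same way, and share no named transgene with the mutant. The labels give stages 10 to 13 for both groups and describe this window as running from retraction of the germ band through dorsal closure. The other 3 arrays of the series, labelled as driving UAS-Cbt with the epidermal driver 69B-Gal4, entered only the estimate of spread, except where their values are named. Whether the RNA samples within a group were independent collections of embryos is unstated, and the p-values therefore cover only the spread among these arrays, which may be technical. The number of embryos per w1118 sample is not given.

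Cabut encodes a zinc finger transcription factor of the Krüppel-like and TGF-beta inducible early gene family. It is required for dorsal closure, in which the lateral epidermal sheets are drawn together over the amnioserosa. Closure depends on the JNK kinase cascade in the leading edge cells, on the BMP ligand Dpp, which this cascade switches on, and on an actomyosin cable anchored at adherens junctions.

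Levels are log2 values of 1 probe set on 1 array, so a difference of 1 unit is a 2-fold change. Each difference is the mutant mean minus the w1118 mean, tested with limma over 18769 probe sets in a fit of all 9 arrays, and a change is called where the Benjamini-Hochberg adjusted p is under 0.05. The highest of the control probe sets named Tag served as background and stood at 0.74, 0.63 and 0.75 on the mutant arrays, against 0.58, 0.95 and 0.58 on w1118 replicates 1, 2 and 3. Between 51.5% and 62.0% of probe sets exceeded it on these 6 arrays. The number of arrays limits the precision.

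The control arrays did not form 1 group. Levels of w1118 replicates 1 and 3 differed by over 2 log2 units at 38 probe sets. Replicate 2 differed by that much from replicate 1 at 1796 and from replicate 3 at 1794. Within the mutant the pairs differed at 5 to 236 probe sets, with replicate 1 in both of the larger counts. The mutant arrays differed from w1118 replicate 2 at 209 to 386 probe sets and from w1118 replicates 1 and 3 at 463 to 1152. RNA quality measures did not all split in 1 way. The 3′ minus 5′ difference of the actin control probe sets was 3.16 to 3.49 on the mutant arrays, and 3.18, 4.75 and 3.36 on w1118 replicates 1, 2 and 3. That of eIF-4a was 2.86 to 2.92 on the mutant arrays, and 3.24, 2.64 and 3.67 on the same 3 control arrays. Poly-A spike-in controls averaged 3.25 to 3.51 in the mutant, against 1.71, 3.43 and 2.09 on w1118 replicates 1, 2 and 3. Their part in the results was not tested.

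Markers of the tissues of a whole embryo were present, and 22 of 27 measured ones exceeded background on all 6 arrays. The exceptions were vas, a germ cell marker below background on every array, zen, an early dorsal gene, osk, a maternal gene, Ddc, which makes dopamine for cuticle tanning, and Cpr49Ae, a late cuticle gene. Several markers followed the split of the controls. The muscle light chain gene Mlc2 stood at 3.45, 1.74 and 2.35 in the mutant, against 5.63, 1.29 and 4.80 on w1118 replicates 1, 2 and 3. The germ cell marker nanos stood at 5.88, 3.67 and 4.73 in the mutant, against 2.21, 7.10 and 3.18 on the same control arrays. The maternal gene bcd was high only on mutant replicate 1 (4.26) and w1118 replicate 3 (3.93), among values of 0.998 to 1.09 on the other 4 arrays. In whole embryos, fewer cells of a type and less RNA per cell cannot be told apart.

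The mutated gene was measured by a single probe set. The cbt level was 4.25, 4.70 and 3.85 in the mutant, against 6.22, 6.05 and 7.90 in w1118. Every mutant array lay below every control array, and here w1118 replicate 2 was close to replicate 1. The difference of -2.46 (SE 0.48) missed the threshold (limma adjusted p = 0.19). Without w1118 replicate 2 it was -2.80 and passed (adjusted p = 0.0049), and with replicate 2 as the only control it was -1.79 (adjusted p = 0.123). The transcript was still well above background in the mutant. On the arrays labelled overexpression cbt stood at 3.17, 3.16 and 3.74, despite that label below every mutant and w1118 array. The cbt gene lies within the span of ush, which encodes a cofactor of GATA factors and is itself needed for the amnioserosa. The ush level was 3.64, 4.36 and 4.52 in the mutant, against 5.31, 4.17 and 5.41 in w1118, with overlapping groups (difference -0.79, adjusted p = 0.60).

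Over all probe sets, 25 of 18769 (0.133%) passed, 18 higher (0.0959%) and 7 lower (0.0373%) in the mutant, and 21 of them carry 1 gene symbol. At an unadjusted p under 0.05 there were 1690, of which 720 were higher and 970 lower. Mutant and w1118 arrays were fully apart at 1838 probe sets (9.79%), of which 1009 (5.38%) were higher and 829 (4.42%) lower in the mutant. With this few arrays per group, a share near 9.79% arises when arrays are ordered at random, so the count alone shows no difference. The number called rested on single arrays. Leaving out mutant replicate 3 gave 15, leaving out w1118 replicate 3 gave 12, and leaving out w1118 replicate 2 gave 3987. Fits without replicate 1, 2 or 3 of the arrays labelled overexpression gave 14, 13 and 12. A fit of these 6 arrays alone gave 3.

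**Figure D1:**
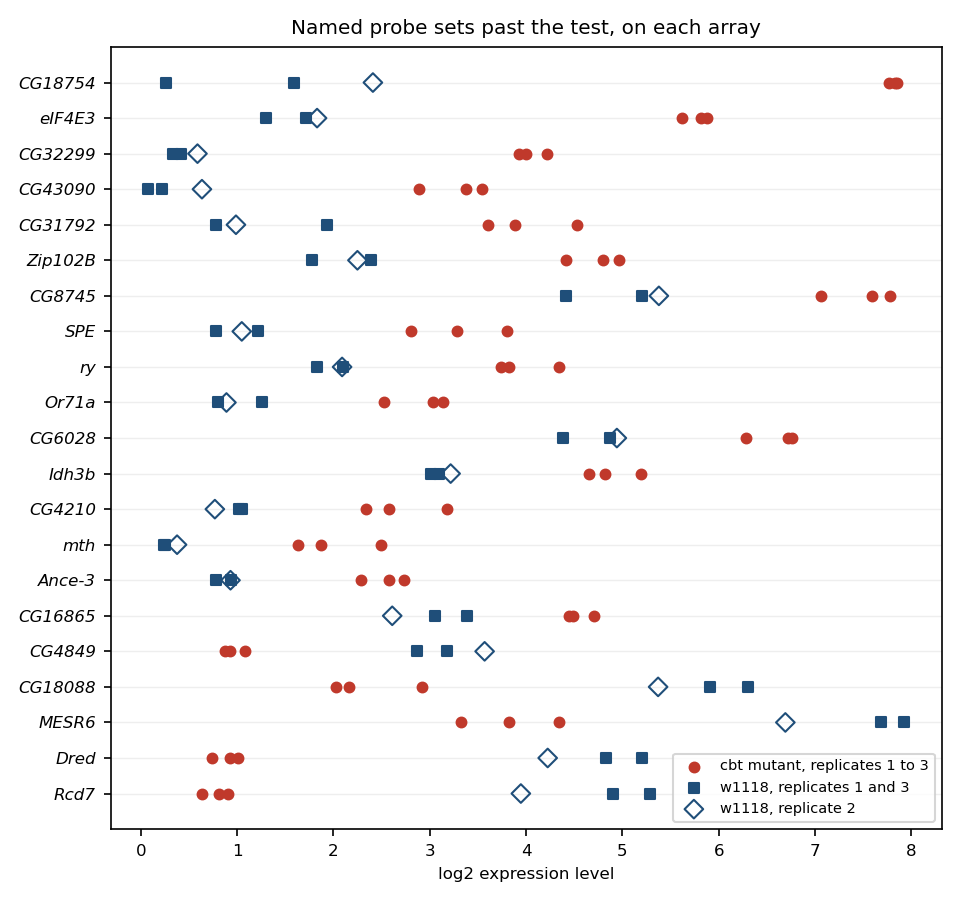
Log2 expression level (horizontal axis) of the 21 named probe sets that passed the test, on each of the 3 cbt mutant arrays (red circles) and the 3 w1118 arrays (blue squares for replicates 1 and 3, open diamonds for replicate 2). For every gene shown the red and blue symbols are apart. Replicate 2 of w1118 is the control nearest to the mutant at CG18754, MESR6, Dred and Rcd7 among others, and the widest space is at CG18754.

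The largest rises were of CG18754, eIF4E3, CG32299 and CG43090, transcripts that were low or at background in w1118. CG18754 stood at 7.85, 7.83 and 7.76 in the mutant, against 0.26, 2.41 and 1.60 in w1118. It rose by 6.39 (SE 0.50, adjusted p = 0.004), with mutant arrays within 0.1 of each other. eIF4E3 encodes a member of the eIF4E family, whose members bind the mRNA cap at the start of translation. Its level was 5.82, 5.87 and 5.62 in the mutant, against 1.30, 1.83 and 1.72 in w1118, a rise of 4.15 (SE 0.17, adjusted p = 8.49e-05). CG32299 stood at 4.0, 3.92 and 4.22 in the mutant and below background on every w1118 array (0.34, 0.59 and 0.41). The mutant level was at least 10.2-fold higher (adjusted p = 8.49e-05). CG43090 had 3.54, 2.88 and 3.38 in the mutant, against 0.08, 0.64 and 0.22 in w1118, which is at least 5.93-fold higher (adjusted p = 0.00263). For a group at background, the fold is taken against the background level of its arrays and is a lower bound. A probe set with no gene symbol behaved likewise, with 4.59, 4.73 and 4.08 in the mutant against 0.15, 0.33 and 0.59 in w1118.

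Against w1118 replicate 2 alone the differences were 5.41 for CG18754, 3.94 for eIF4E3, 3.46 for CG32299 and 2.63 for CG43090, and all 4 passed, as did CG31792 at 3.02 (adjusted p = 0.0394). All 4 of the first-named genes also passed with any 1 of the 9 arrays left out, at adjusted p of at most 0.0315. In the fit of the 6 arrays alone, eIF4E3 (adjusted p = 0.00839) and CG32299 (0.00789) still passed, while CG18754 and CG43090 did not (0.112 for both). The unnamed probe set above also passed there, and no other call did. The arrays labelled overexpression held eIF4E3 at 5.46 to 5.77, inside or near the mutant range. They held CG18754, CG32299 and CG43090 at 0.23 to 1.36, near w1118. Calls named below varied on these arrays. There mth was at 1.89 to 2.11, inside the mutant range. Or71a (2.43 to 2.68), CG16865 (4.21 to 4.48) and MESR6 (3.59 to 4.76) were inside or near that range. CG6028 (6.84 to 6.95) and CG4849 (0.70 to 0.76) lay past the mutant arrays, on the side away from w1118. CG31792 was at 0.86 to 1.08, inside the w1118 range, and Ance-3 at 0.46 to 0.73, below it. Dred was at 3.40 to 3.50, between the groups, as were Rcd7, CG18088, Zip102B, Idh3b, ry, CG8745, SPE and CG4210.

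Zip102B, a zinc transporter gene, stood at 4.80, 4.97 and 4.42 in the mutant, against 2.39, 2.25 and 1.78 in w1118, a rise of 2.59 (SE 0.21, adjusted p = 0.00506). The other 22 genes measured for zinc, iron and copper transport did not pass, and Catsup, a zinc transporter of the secretory pathway, came next with 0.60 (adjusted p = 0.414). Idh3b encodes a subunit of the mitochondrial isocitrate dehydrogenase of the citric acid cycle. Its level was 5.20, 4.65 and 4.82 in the mutant, against 3.01, 3.22 and 3.09 in w1118 (rise of 1.78, adjusted p = 0.00771). The gene ry encodes xanthine dehydrogenase, which acts in purine breakdown and makes eye pigment precursors. It stood at 3.74, 3.82 and 4.34 in the mutant, against 2.10, 2.09 and 1.83 in w1118 (rise of 1.96, adjusted p = 0.00986). CG8745 stood at 7.59, 7.78 and 7.06 in the mutant, against 4.41, 5.38 and 5.20 in w1118, and rose by 2.48 (adjusted p = 0.023). In all of these the 3 control arrays lay within 1 unit of each other and clear of the mutant arrays. The calls of Idh3b and ry were lost without w1118 replicate 3 (adjusted p = 0.0507 and 0.0518), with replicate 2 as the only control (0.0723 for both) and with the replicate number as a block (0.076 and 0.117). That of Idh3b was also lost under cyclic loess, quantile normalization and an intensity trend (0.0713, 0.0727 and 0.0917). The call of CG8745 was lost in 6 of the 9 fits that left out 1 array (adjusted p of up to 0.0949). Zip102B passed in all 9, but not in the fit of the 6 arrays alone (0.112).

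SPE, the protease that cuts the Toll ligand Spätzle, stood at 3.80, 2.81 and 3.29 in the mutant, against 1.22, 1.05 and 0.78 in w1118, and rose by 2.28 (SE 0.24, adjusted p = 0.017). Its substrate gene spz ran at 1.15, 0.81 and 0.75 in the mutant, against 2.98, 1.14 and 2.03 in w1118, and did not pass (-1.15, adjusted p = 0.476). Of 22 Toll and immune genes measured, SPE alone passed. Ance-3, a relative of angiotensin converting enzyme genes, rose by 1.65 (adjusted p = 0.00613), from a probe set at 2.29 to 2.74 in the mutant and 0.79 to 0.94 in w1118. Its other probe set was at 0.21 to 0.37 in the mutant and 0.21 to 0.49 in w1118, below background in both. The odorant receptor gene Or71a rose by 1.92 (2.53 to 3.14 in the mutant, 0.80 to 1.26 in w1118, adjusted p = 0.0143). The gene mth, which encodes the receptor Methuselah, had 2.49, 1.87 and 1.63 in the mutant, at least 2.45-fold above w1118, where it was below background (adjusted p = 0.034). CG31792, CG6028, CG4210 and CG16865 rose by 2.77, 1.85, 1.75 and 1.53. Among these 8 genes Ance-3 passed in all 9 fits with 1 array left out and the other 7 in 2 to 4 of them. With w1118 replicate 2 as the only control, CG31792 and CG16865 passed (adjusted p = 0.0394 and 0.026) and the other 6 did not (0.0594 to 0.114). The highest adjusted p with 1 array left out was 0.2, for CG16865 without mutant replicate 3.

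The 7 falls were those of 5 named genes and of 2 probe sets with no gene symbol. Dred stood at 1.01, 0.74 and 0.93 in the mutant, against 5.20, 4.22 and 4.83 in w1118, and fell by 3.86 (SE 0.23, adjusted p = 0.000836). Rcd7, a gene named from a screen for centrosome defects, stood at 0.91, 0.63 and 0.81 in the mutant, against 5.29, 3.95 and 4.91 in w1118, and fell by 3.93 (SE 0.44, adjusted p = 0.0233). CG18088 stood at 2.16, 2.92 and 2.03 in the mutant, against 6.31, 5.37 and 5.90 in w1118, a difference of -3.49 (adjusted p = 0.00513). MESR6, found as a suppressor in a misexpression screen on Ras signalling, stood at 4.34, 3.82 and 3.32 in the mutant, against 7.68, 6.69 and 7.93 in w1118, a difference of -3.60 (adjusted p = 0.0309). In these 4 genes w1118 replicate 2 was the lowest control and still lay 2.35 to 3.22 units above the highest mutant array. CG4849 fell by 2.24 on 1 probe set (0.92, 1.09 and 0.87 in the mutant, against 3.18, 3.57 and 2.86 in w1118, adjusted p = 0.004). Its other probe set read 5.64, 6.33 and 6.48 in the mutant, against 5.11, 5.21 and 5.53 in w1118, higher in every mutant array but not past the threshold (adjusted p = 0.354). Dred, CG18088 and CG4849 passed in all 9 fits with 1 array left out, and none of them in the fit of the 6 arrays alone (adjusted p = 0.0638, 0.136 and 0.112). CG18088 was also lost with the replicate number as a block (0.0743) and CG4849 under quantile normalization (0.11). By contrast Rcd7 passed in 3 and MESR6 in 1, with adjusted p of up to 0.149 and 0.159 without mutant replicate 3. Neither passed with w1118 replicate 2 as the only control (0.08 and 0.0941).

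Of the 21 named ones, chromosome arm 3L held 8 of its 2665 probe sets (0.3%) and 3R held 7 of 3407 (0.205%). Arm 2L, which carries cbt, held 4 of 2462 (0.162%). Over all arms these were 21 of the 13544 probe sets assigned through RefSeq gene IDs. X held 1 of 2188, chromosome 4 held 1 of 82 and 2R held 0 of 2733, by RefSeq annotation (assembly Release 6 plus ISO1 MT). CG18754 and SPE, both higher, are neighbours whose spans overlap, so their probe sets may not be fully separate. Dred and Rcd7, both lower, are parted by 3 genes, and Idh3b and CG6028, both higher, by 2.

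A second view ranked genes by the gap from the lowest array of the higher group to the highest of the lower group. This gap is set by the control array nearest to the mutant and the mutant array nearest to the controls. Gaps over 1 unit were found at 20 probe sets higher (0.107%) and 17 lower (0.0906%) in the mutant. Of the 10 widest gaps of named genes in each direction, 9 of the higher and 5 of the lower ones had been called. Since the gap chose them, the values of the others are a description. Hrb87F, which encodes an hnRNP protein that binds nascent RNA, stood at 3.53, 3.50 and 3.70 in the mutant, against 9.32, 6.55 and 9.25 in w1118. Its difference was -4.80 (SE 0.66, adjusted p = 0.062), and w1118 replicate 2 was the lowest control. Against replicate 2 alone it was -2.98 (adjusted p = 0.00314) and without replicate 2 it was -5.71 (adjusted p = 1.63e-06).

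Actbeta, an activin-like ligand of the TGF-beta superfamily, stood at 5.91, 2.67 and 3.997 in the mutant, against 8.04, 9.33 and 8.06 in w1118. Here the mutant arrays spread over more than 3 units, and w1118 replicate 2 was the highest control (difference -4.29, SE 0.74, adjusted p = 0.132). The uncharacterised genes CG3857 and CG6738 were at -2.22 (adjusted p = 0.13) and -1.99 (adjusted p = 0.12), and a second probe set of CG3857 was at 0.06. lncRNA:CR43337, a long noncoding RNA gene, stood at 3.79, 3.61 and 5.06 in the mutant, against 1.01, 1.77 and 1.12 in w1118 (2.85, adjusted p = 0.0671), and the second probe set of that gene differed by 0.06. The gene cbt itself held the place after CG3857 in that order.

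**Figure D2:**
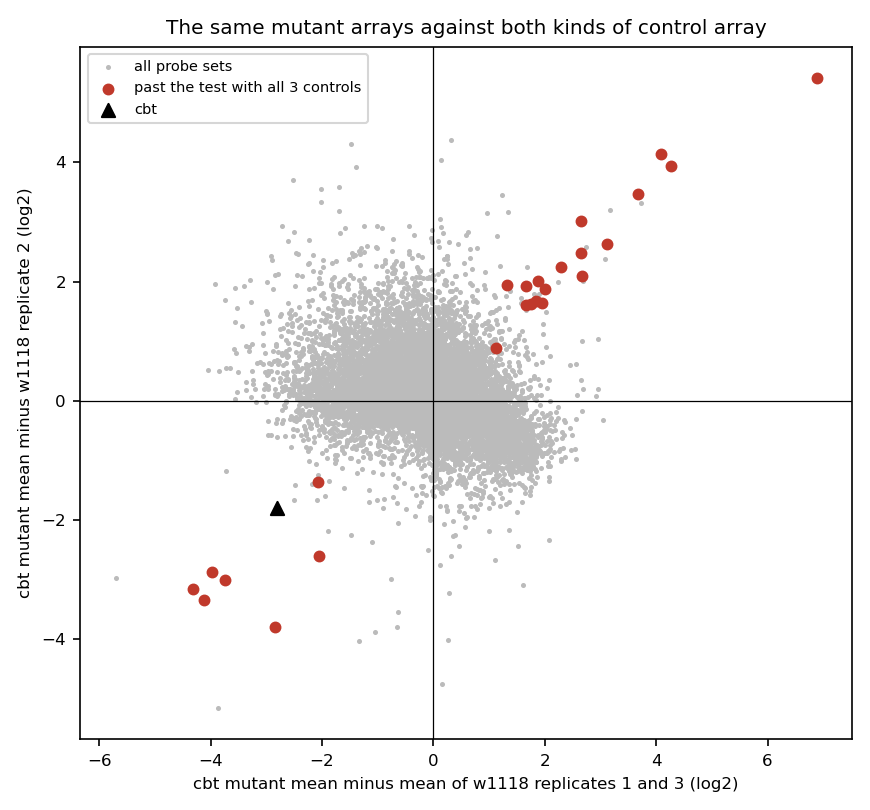
Difference of the cbt mutant mean from the mean of w1118 replicates 1 and 3 (horizontal axis, log2) and from w1118 replicate 2 alone (vertical axis, log2), with a grey point per probe set, red points for the 25 called probe sets and a black triangle for cbt. The called probe sets and cbt lie in the quadrants where both differences have the same sign, whereas the grey cloud extends into the quadrants where the signs differ. The calls were made with all 3 controls in the test, so the place of the red points follows in part from that choice.

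At 4308 probe sets (23%) all 3 mutant arrays lay between w1118 replicate 2 on one side and w1118 replicates 1 and 3 on the other. Without w1118 replicate 2, 3987 probe sets passed (21.2%), 1709 higher (9.11%) and 2278 lower (12.1%). Of these 3987, 1209 (30.3%) had the same sign against replicate 2 alone and 2778 had the opposite sign. With a size of at least 1 unit on both sides, 44 higher and 33 lower ones were left. The genotype and what sets replicates 1 and 3 apart from the other arrays cannot be told apart in that count. With w1118 replicate 2 as the only control, 19 were higher (0.101%) and 19 lower (0.101%), and this fit takes the lone array to vary like the other groups.

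Gene lists were described by counts and medians over the brightest probe set of each gene. Over all 11982 named genes the median difference was 0.01, and it was 0.03, -0.01 and 0.05 against w1118 replicates 1, 2 and 3. The median difference was below 0 in 22 of 29 lists. Against single control arrays it was below 0 in 23 lists for replicate 1, in 24 for replicate 3 and in 7 for replicate 2. In 18 lists the sign against replicate 2 was opposite to that against both other controls. Differences also followed gene length (Spearman's rho -0.579 across 5994 genes with a mean level over 2, which are not independent replicates). The trend was fitted to these genes and removed from all genes, so the all-gene median includes genes outside the fit. With the trend removed that median was -0.16. Of the 29 list medians, 20 then lay below 0 and 12 below -0.16. Over all genes, 5.85% lay above all 3 controls, 4.31% below them and 24.5% between replicate 2 and the others.

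**Figure D3:**
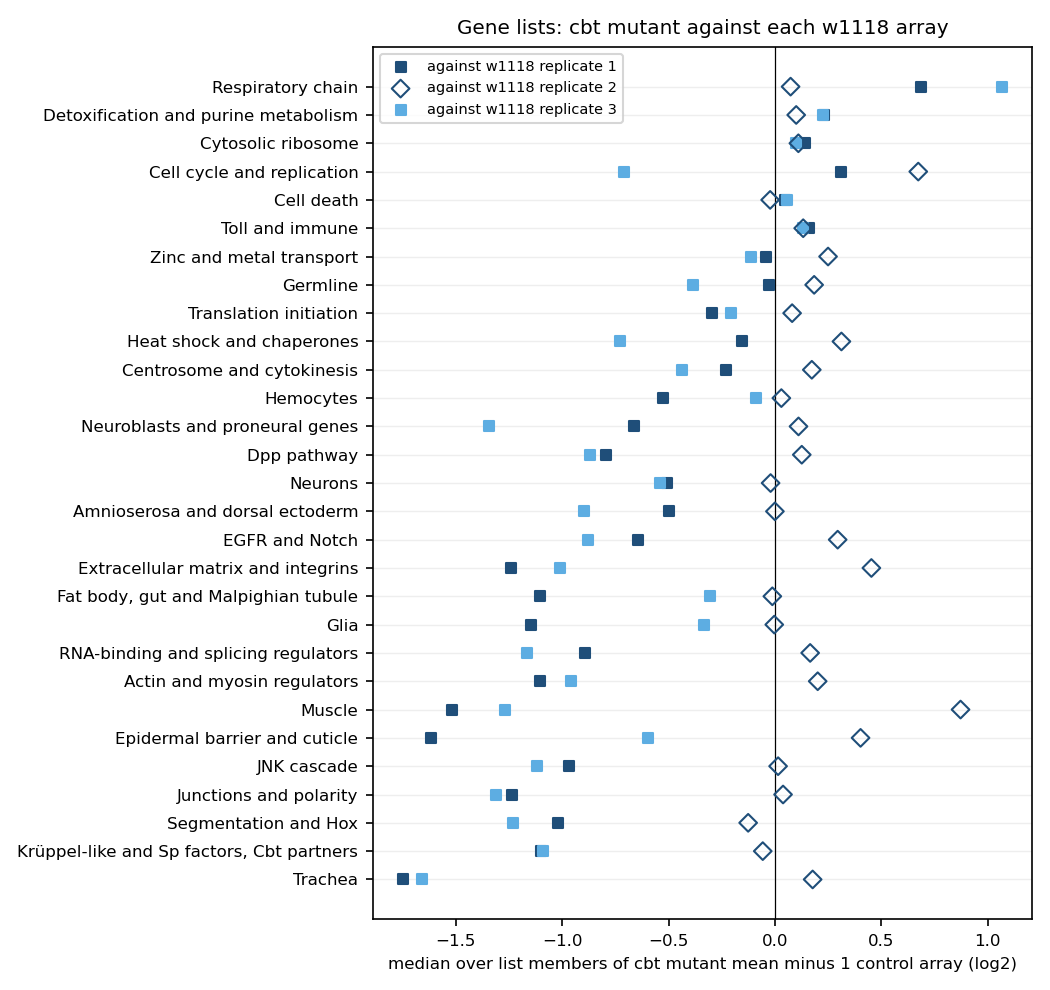
Median over the members of each of 29 gene lists of the cbt mutant mean minus a single w1118 array (horizontal axis, log2), with dark squares for replicate 1, light squares for replicate 3 and open diamonds for replicate 2. The squares of most tissue and signalling lists lie left of 0 while the diamonds lie near or right of 0. The respiratory chain, cytosolic ribosome, detoxification, and Toll and immune lists lie right of 0 for all 3 controls.

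In the JNK cascade 0 of 19 measured genes passed, and 4 (21.1%) lay below all 3 controls, against 4.31% of all genes. These 4 were raw, a negative regulator of the cascade, the kinase genes Mkk4 and hep, and POSH, a scaffold gene. The level of hep, the JNK kinase of closure, was 3.65, 3.77 and 3.52 in the mutant, against 4.70, 4.05 and 4.61 in w1118 (difference -0.81, adjusted p = 0.369). That of raw was 4.09, 4.61 and 4.42 in the mutant, against 5.92, 4.79 and 5.57 in w1118 (-1.05, adjusted p = 0.355). In both, w1118 replicate 2 was the control nearest to the mutant. The phosphatase gene puc, a target of the pathway that turns it down, stood at 2.12, 2.76 and 2.16 in the mutant, against 4.45, 1.88 and 4.71 in w1118, so that its sign turned with the control. The list median was -0.97, 0.01 and -1.12 against replicates 1, 2 and 3. Without w1118 replicate 2, 12 of the 19 members passed as lower and 1 as higher, against 1750 and 1465 of all 11982 genes. With the length trend removed the median was -0.31, against -0.16 over all genes.

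The Dpp pathway list also holds genes of activin signalling, such as Actbeta, babo and Smox. In this mixed list 0 of 20 genes passed and 2 (10%) lay below all controls, against 4.31% of all genes. They were Actbeta, given above, and Dad, the inhibitory Smad gene that Dpp switches on. Dad stood at 4.07, 4.63 and 5.07 in the mutant, against 6.11, 5.41 and 6.34 in w1118 (-1.36, SE 0.31, adjusted p = 0.275), with all 3 control arrays above. The ligand gene dpp did not part the groups, with 1.64, 2.75 and 2.25 in the mutant, against 4.26, 1.98 and 4.55 in w1118. The list median was -0.79, 0.13 and -0.87 against replicates 1, 2 and 3.

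Amnioserosa and dorsal ectoderm genes gave 0 of 15 past the test and 1 (6.67%) below all controls, which is near the 4.31% of all genes. The member below was tup, an Islet-type factor of the dorsal territory, at 2.99, 3.46 and 3.52 in the mutant, against 4.83, 4.05 and 4.34 in w1118 (-1.08, SE 0.23, adjusted p = 0.232). The GATA factor gene srp, used in amnioserosa, fat body and blood cells, stood at 5.17, 5.66 and 5.70 in the mutant, against 7.02, 5.68 and 7.45 in w1118 (-1.21, adjusted p = 0.456). Its level on w1118 replicate 2 lay within the mutant range.

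Among 17 actin and myosin regulators 0 passed, and 1 (5.88%) lay below all controls, near the 4.31% of all genes. It was capu, an actin nucleator (3.19, 3.50 and 3.23 in the mutant, against 4.66, 4.18 and 4.27 in w1118, difference -1.06, adjusted p = 0.141). Mbs, a subunit of myosin phosphatase, stood at -1.67 overall and -0.26 against replicate 2. Among 24 junction and polarity genes 0 passed and 3 lay below all controls, against 4.31% of all genes, namely alpha-Cat, the septate junction gene Nrx-IV and nrv2, a sodium pump subunit. The level of alpha-Cat, which links cadherin to actin, was 7.33, 7.68 and 7.36 in the mutant, against 8.42, 7.82 and 8.54 in w1118 (-0.80, SE 0.20, adjusted p = 0.331). The junction list median was -1.24, 0.04 and -1.31 against replicates 1, 2 and 3. The basement membrane gene trol, which encodes perlecan, showed the split most simply, with 1.11, 1.11 and 1.02 in the mutant, against 4.42, 1.01 and 4.27 in w1118.

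Of 26 respiratory chain and ATP synthase genes 0 passed, 8 (30.8%) lay above all 3 controls, against 5.85% of all genes, and 0 lay below. They include subunits of complexes I to V. ND-42 of complex I stood at 8.19, 7.55 and 8.12 in the mutant, against 7.02, 7.13 and 6.94 in w1118 (0.92, adjusted p = 0.389). Cyt-c1 of complex III stood at 8.83, 8.35 and 8.56 in the mutant, against 8.07, 8.16 and 7.81 in w1118 (0.57, adjusted p = 0.355). ATPsyngamma of the ATP synthase stood at 8.35, 7.87 and 8.23 in the mutant, against 7.61, 7.47 and 7.36 in w1118 (0.67, adjusted p = 0.354). The other 5 were SdhD, COX4, COX8, ATPsynD and UQCR-14, with differences of 0.44 to 0.91. The list median was 0.69, 0.07 and 1.07 against replicates 1, 2 and 3, positive for each. Between replicate 2 and the other controls lay 12 members (46.2%), against 24.5% of all genes. Without w1118 replicate 2, 16 of the 26 passed as higher and 2 as lower, against 1465 and 1750 of all 11982 genes. These genes are short, with a median gene length of 1344 bases against 2263 over all genes, and with the length trend removed the median was 0.19, against -0.16 over all genes.

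**Figure D4:**
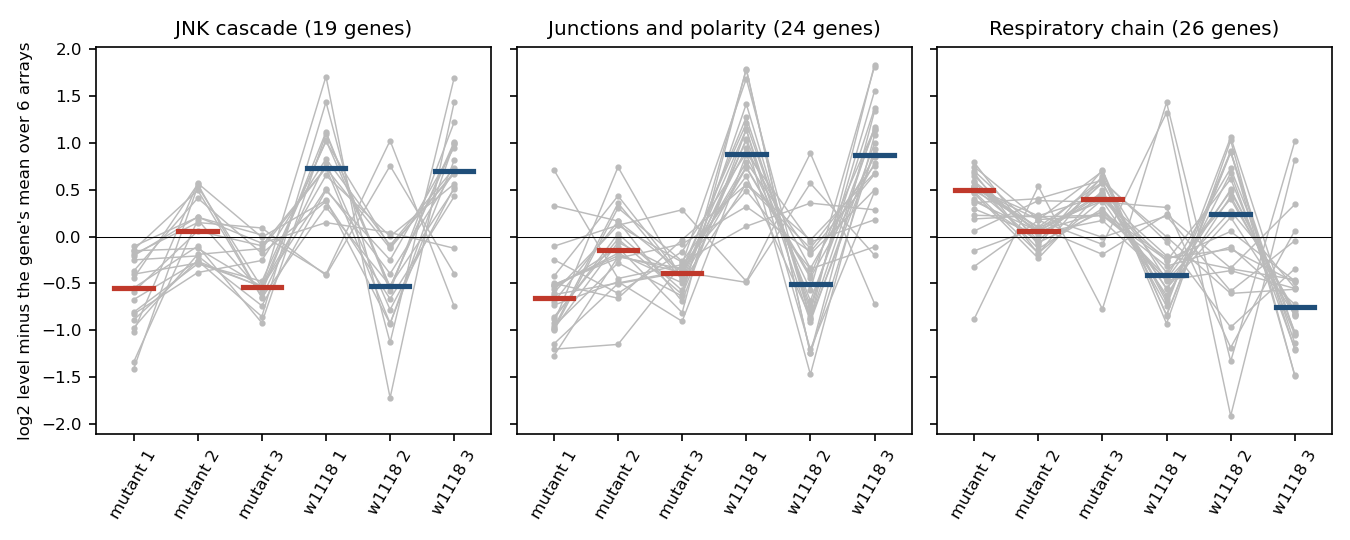
Log2 level minus the gene's own mean over the 6 arrays (vertical axis) for the measured members of 3 lists on each cbt mutant and w1118 array, with a grey line per gene and a thick bar at the list median, red for mutant and blue for w1118 arrays. In the JNK cascade the medians are -0.55, 0.06 and -0.53 in the mutant and 0.73, -0.52 and 0.70 on w1118 replicates 1, 2 and 3, and in the respiratory chain they are 0.50, 0.06 and 0.40 in the mutant and -0.41, 0.24 and -0.76 in w1118.

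Among 15 cytosolic ribosomal protein genes 0 passed and 4 (26.7%) lay above all controls, against 5.85% of all genes. RpS12 stood at 11.32, 11.17 and 11.30 in the mutant, against 10.93, 10.47 and 10.89 in w1118 (0.50, adjusted p = 0.687). RpS26 had 0.31, RpLP1 0.15 and RpS15 0.09. The list median was 0.10 to 0.14 against each single control, and -0.30 with the length trend removed, against -0.16 over all genes. Of 20 translation initiation genes eIF4E3 alone passed. The poly(A)-binding protein gene pAbp stood at 8.86, 8.61 and 8.89 in the mutant, against 9.48, 9.06 and 9.55 in w1118 (-0.57, adjusted p = 0.369). Of 24 cell cycle and replication genes 0 passed and 2 (8.33%) lay above all controls, near the 5.85% of all genes. They were Orc1, of the origin recognition complex (0.73, adjusted p = 0.426), and fzy, an activator of the anaphase-promoting complex (0.71, adjusted p = 0.432). The list median was 0.31 and 0.67 against replicates 1 and 2 but -0.71 against replicate 3.

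In the segmentation and Hox list 0 of 23 genes passed and 6 (26.1%) lay below all controls, against 4.31% of all genes. The terminal gap gene tll stood at 1.84, 2.90 and 2.58 in the mutant, against 3.80, 3.59 and 3.63 in w1118 (-1.24, SE 0.25, adjusted p = 0.219), and there the controls were close together. The Hedgehog effector gene ci stood at 6.68, 6.84 and 7.002 in the mutant, against 7.83, 7.35 and 8.14 in w1118 (-0.93, adjusted p = 0.268). The pair-rule genes ftz and odd, the Hox gene Scr and the Hedgehog signal transducer gene smo were at -0.94, -1.02, -1.17 and -0.45. The list median was -1.02, -0.13 and -1.23 against replicates 1, 2 and 3, below 0 for each.

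Of 20 RNA-binding and splicing regulators 5 (25%) lay below all controls, against 4.31% of all genes, 1 (5%) lay above, against 5.85%, and 0 passed. Beside Hrb87F, these were its relative Hrb98DE (7.51, 7.73 and 7.82 in the mutant, against 9.85, 7.87 and 10.00 in w1118), mub, Psi and Sxl, while SF2, a splicing factor, was above by 0.39. Krüppel-like and Sp factors with Cbt partners had 0 of 16 past the test and 3 (18.8%) below all controls, against 4.31% of all genes. Besides cbt they were the co-repressor gene CtBP (-0.84, adjusted p = 0.376) and the sugar sensor gene Mondo (-0.97, adjusted p = 0.399). In the centrosome and cytokinesis list Rcd7 fell and the other 21 genes did not pass. Of these Map205, a microtubule-associated protein gene, was nearest, at 4.93, 4.16 and 4.70 in the mutant, against 6.82, 5.99 and 6.75 in w1118 (-1.92, SE 0.29, adjusted p = 0.086). Among 23 detoxification and purine genes ry rose, 4 (17.4%) lay above all controls with ry counted, against 5.85% of all genes, and 1 (4.35%) lay below, against 4.31%. Above lay Cyp4e2 and Cyp6g1, cytochrome P450 genes (1.53 and 1.60, adjusted p = 0.153 and 0.163), and mal, needed for active xanthine dehydrogenase (0.85, adjusted p = 0.61), and below lay GstE6, a glutathione S-transferase gene (-0.95, adjusted p = 0.355).

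Tissue lists had 0 members past the test. Their medians against replicates 1, 2 and 3 were -1.52, 0.87 and -1.27 for muscle, -1.75, 0.18 and -1.66 for trachea, -1.62, 0.40 and -0.60 for the epidermal barrier, and -1.24, 0.45 and -1.01 for extracellular matrix and integrins. They were -0.51, -0.02 and -0.54 for neurons, -1.15, -0.0031 and -0.33 for glia, and -0.52, 0.03 and -0.09 for hemocytes. Of 18 muscle genes 10 lay between replicate 2 and the other controls, and 10 of 21 matrix genes did, against 24.5% of all genes. Above all 3 controls lay 1 glial gene (8.33%), against 5.85% of all genes, and 0 members of the other lists named here. Below them lay 3 muscle (16.7%), 2 hemocyte (11.1%) and 2 neuron genes (10.5%), against 4.31% of all genes. Also below lay 1 gene each of glia (8.33%), trachea (6.67%), epidermal barrier (6.25%) and matrix (4.76%). The RNA-binding protein gene fne of neurons stood at 4.09, 4.08 and 4.14 in the mutant, against 7.66, 4.72 and 6.15 in w1118 (-2.08, adjusted p = 0.408). The scavenger receptor gene crq of hemocytes was at 4.54, 4.66 and 4.87 in the mutant, against 5.05, 5.68 and 5.42 in w1118 (-0.69, adjusted p = 0.371), with replicate 2 the highest control. Heat shock and cell death lists had 0 of 14 and 0 of 12 members outside the controls. There a single array could set a value, as DnaJ-1 showed with 5.71, 6.59 and 5.33 in the mutant, against 6.25, 6.54 and 9.24 in w1118.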

How the data were processed

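Total RNA of whole embryos, labelled with biotin, was measured on Drosophila Genome 2.0 arrays from Affymetrix, with a single sample on each. The authors deposited log2 expression values, 1 for each probe set on each array. Per the submitters' processing notes, the tools were RMA, affy and limma, with no version. No chip definition, filter or genome build was stated. Of 18952 probe sets, 183 Affymetrix controls were kept out of the tests. Platform annotation gave 1 symbol to 13647 probe sets, several to 402 and none to 4720, and 13544 were updated through RefSeq gene IDs. The log2 values were used as deposited, in limma 3.58.1 under R 4.3.3, with 1 term per group and Benjamini-Hochberg adjustment. The procedure was tested on simulated data. The genes named were cbt, all called probe sets with 1 symbol, the 10 widest gaps per direction and, of each list, the 2 members with the smallest p, with other members named after their values were seen. Members and lists were chosen with earlier results of these data known. Alternatives covered normalization, a filter on low levels, array weights, the replicate number as a block, fits of fewer groups and each array left out.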

Additional observations from a re-analysis of the deposited data

Results flagged for a closer look

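Among 100 Affymetrix control probe sets whose target the files do not name, and which no comparison above uses, 2 stood above every w1118 array by more than 1 unit on all 3 mutant arrays and above background there. The first read 5.93, 5.72 and 4.74 in the mutant, against 0.59, 1.10 and 1.13 in w1118, a difference of 4.52. The second read 2.51, 2.61 and 4.53 in the mutant, against 0.46, 0.92 and 0.70 in w1118, a difference of 2.52. On the arrays labelled overexpression they lay at 1.08 to 1.15 and at 0.86 to 1.61. What they detect was not tested.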

How the results depend on the processing

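The count of 25 called probe sets became 5329 with limma array weights, which gave w1118 replicate 2 a weight of 0.119, 3 with only the mutant and w1118 arrays, and 38 with w1118 replicate 2 as the only control. It was 3006 with only these groups fitted and w1118 replicate 2 left out, an alternative added after seeing the data. Leaving out single arrays gave 12 to 3987. Medians set equal, quantile normalization, cyclic loess, the filter on low levels and an intensity trend gave 24 to 26, of which 21 to 24 were among the 25. With the replicate number as a block the count was 11, of which 10 were among the 25. Same-numbered mutant and w1118 arrays had deviations from their group means correlated at -0.17, -0.37 and -0.15. Of the mutant arrays, 0 of 3 correlated best with its own number. In the controls these deviations are set mainly by w1118 replicate 2, which lies apart. They therefore cannot decide whether arrays of the same number share a batch. For cbt, the difference was -3.17 with array weights (adjusted p = 0.00152) and -2.80 with w1118 replicate 2 left out of the fit of both groups (adjusted p = 0.0368), both past the threshold. Leaving out single arrays gave -2.80 to -1.87. The count of 1838 probe sets without overlap was 1084 among those above the median level, a filter that tests fewer, and 2654 to 9140 with 1 array left out, where fewer samples can overlap. The cause of the other shifts was not tested. Of 378 repeats for the called named genes, 262 kept the call and 116 lost it, with no change of sign. Of 377 repeats for list medians, 354 moved by less than the spread between arrays.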
